A study of Mus musculus with 9 samples.

Results

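The nuclear-encoded genes of oxidative phosphorylation were followed across mouse liver libraries from 3 groups. Members were the protein-coding rows whose symbol starts with Nduf, Uqcr, Atp5, Cox4, Cox5, Cox6, Cox7 or Cox8, together with Sdha, Sdhb, Sdhc, Sdhd and Cyc1. This rule found 94 of the 45513 genes in the count table: 38 assigned to complex I, 8 complex I assembly factors (the Ndufaf genes), 4 to complex II, 9 to complex III, 18 to complex IV and 17 to complex V. Ndufa4 was counted with complex I by its symbol, although its protein is known as a complex IV subunit. A further 11 rows with such a prefix were processed pseudogenes and were left out. RNA came from livers of C57BL/6 mice kept for 9 weeks under 1 of 3 regimes, with n = 3 for each. The normal diet group and the high fat vehicle group received vehicle, and the B-LGND2 group received B-LGND2 on the high fat diet. B-LGND2 is known here only by its code name, and the title of the series names it an estrogen receptor beta ligand. The labels used here give no dose, diet composition, sex or age. They do not state that each library is a separate animal and name no batch, so p-values measure only the spread between these 9 samples, which may be technical.

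Oxidative phosphorylation couples the oxidation of NADH and succinate to ATP synthesis in the inner mitochondrial membrane. Complexes I (NADH dehydrogenase) and II (succinate dehydrogenase) pass electrons to ubiquinone, complex III passes them to cytochrome c, and complex IV (cytochrome c oxidase) reduces oxygen. Complexes I, III and IV pump protons, and complex V (ATP synthase) uses the resulting gradient. Complexes I, III, IV and V also contain subunits encoded by mitochondrial DNA, so a complete complex draws on both genomes. In hepatocytes this system oxidises the reducing equivalents of fatty acid breakdown and pays for gluconeogenesis and urea synthesis. Nuclear respiratory factor 1 (NRF1), the ETS factor GABP, YY1, SP1, CREB and the estrogen-related receptors (ERR) are known activators of these genes, with PGC-1 coactivators acting through several of them.

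Promoter windows from 250 bases before to 50 after the annotated start were taken from RefSeq (GRCm38.p6) for the 76 members with an entry; 18 members had none. The windows below belong to 4 members that passed the test in a comparison described further on. They are Ndufa8 (smallest p on high fat diet), Ndufa11 (smallest p with B-LGND2), Ndufs3 (largest fall with B-LGND2) and Atp5g1 (the member that rose with B-LGND2). Each is written 5′ to 3′ on the strand of its gene. Capitals mark matches to the NRF1, ETS, YY1, ERR and CREB words given after the windows.
Ndufa8, chr2:36049289-36049588, minus strand: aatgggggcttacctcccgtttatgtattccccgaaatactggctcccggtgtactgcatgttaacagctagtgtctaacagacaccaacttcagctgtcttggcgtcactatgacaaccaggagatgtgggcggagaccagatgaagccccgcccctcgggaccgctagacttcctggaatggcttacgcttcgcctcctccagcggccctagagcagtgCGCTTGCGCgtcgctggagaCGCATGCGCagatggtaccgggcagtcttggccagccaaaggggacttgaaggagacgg
Ndufa11, chr17:56717512-56717811, plus strand: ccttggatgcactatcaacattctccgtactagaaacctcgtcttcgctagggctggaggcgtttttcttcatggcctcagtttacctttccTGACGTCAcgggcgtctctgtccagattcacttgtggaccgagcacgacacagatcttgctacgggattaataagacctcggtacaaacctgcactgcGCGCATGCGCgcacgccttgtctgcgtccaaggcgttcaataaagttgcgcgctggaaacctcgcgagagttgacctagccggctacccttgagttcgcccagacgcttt
Ndufs3, chr2:90904672-90904971, minus strand: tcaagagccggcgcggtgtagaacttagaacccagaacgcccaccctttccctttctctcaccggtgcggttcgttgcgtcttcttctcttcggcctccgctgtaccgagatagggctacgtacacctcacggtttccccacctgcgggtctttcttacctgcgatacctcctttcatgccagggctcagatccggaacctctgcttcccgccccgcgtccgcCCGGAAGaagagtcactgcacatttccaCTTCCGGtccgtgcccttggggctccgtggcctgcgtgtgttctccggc
Atp5g1, chr11:96075582-96075881, minus strand: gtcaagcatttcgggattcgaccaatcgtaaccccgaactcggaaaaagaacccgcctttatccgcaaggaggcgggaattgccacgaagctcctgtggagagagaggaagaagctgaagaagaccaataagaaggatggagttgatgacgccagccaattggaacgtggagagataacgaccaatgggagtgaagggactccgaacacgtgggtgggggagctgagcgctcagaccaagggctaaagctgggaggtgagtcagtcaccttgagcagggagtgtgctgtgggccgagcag
The Ndufa8 window held 2 NRF1 words, with first bases at -29 and -9 from the start. The Ndufa11 window held overlapping NRF1 words on both strands at -60 and -59 and a CREB word at -158. The Ndufs3 window held ETS words at -27 and 2, and the Atp5g1 window held none of the capitalised words.

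Over all 76 members with a window, the NRF1 word GCGCANGCG was found on either strand in 22 (28.95%). It was found in 7.03% of 27025 genes in the RefSeq table and in 15.6% of the 8823 whose symbol matched a gene tested here. Members were also matched by synonym and the 8823 were not, so tested genes with another RefSeq symbol are missing from them. The ETS word CCGGAAG, which GABP binds, was found in 18 members (23.7%), against 9.93% of all genes and 20.5% of tested genes. The YY1 word ATGGCGG was in 12 members (15.8%; 4.69% and 9.63%) and the CREB word TGACGTCA in 4 (5.26%; 2.03% and 3.49%). The ERR word TCAAGGTCA was in 2 members (2.63%; 0.466% and 0.340%), Sdhd and Atp5g3. The SP1 word GGGCGG was in 35 members (46.05%), above the share of all genes (38.2%) and below that of tested genes (68.25%). A match is a description of letters in the window, and 15 members matched none of the 6 words.

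Library totals ran from 5778978 to 10322972 counts, and the members took 0.764% to 1.28% of them. Hepatocyte markers summed to 79439 to 118485 counts per 1000000 (CPM, on library sizes scaled by the trimmed mean of M-values), while 6 of 9 muscle markers, including the myosin genes Myh1, Myh4, Myh6 and Myh7, had 0 counts in all libraries. Of the 94 members, 84 had enough counts for the test. They have short transcripts, with a median of 810 bases against 2705 for the 10824 protein-coding genes tested, and 51 of the 84 (60.7%) were under 1000 bases against 7.50%. Libraries differed in how their levels followed transcript length (Spearman correlation across genes with the deviation from the 9-library mean). That correlation was -0.544 in normal diet replicate 3, 0.322 to 0.355 in the high fat vehicle libraries and -0.189 to 0.161 in the other 5. Normal diet replicate 3 was the highest of the 9 libraries for 64 of the 84 members (76.2%; 21% of all genes tested) and the lowest for none, with a member median 0.82 (log2 CPM) above the 9-library mean. Ribosomal RNA models took 3.42% ± 0.299 of counts in the normal diet group, 1.20% ± 0.275 in the high fat vehicle group and 5.51% ± 1.04 in the B-LGND2 group (mean ± SD, n = 3), with no overlap between groups. With that share as a covariate no member was called in any comparison by edgeR (20, 9 and 3 at an unadjusted p under 0.05), and 1, 2 and 12 of all genes were. Since the rRNA share did not overlap between groups, this fit cannot tell group and share apart. The part of length and rRNA share in the members' values was not tested.

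**Figure D1:**
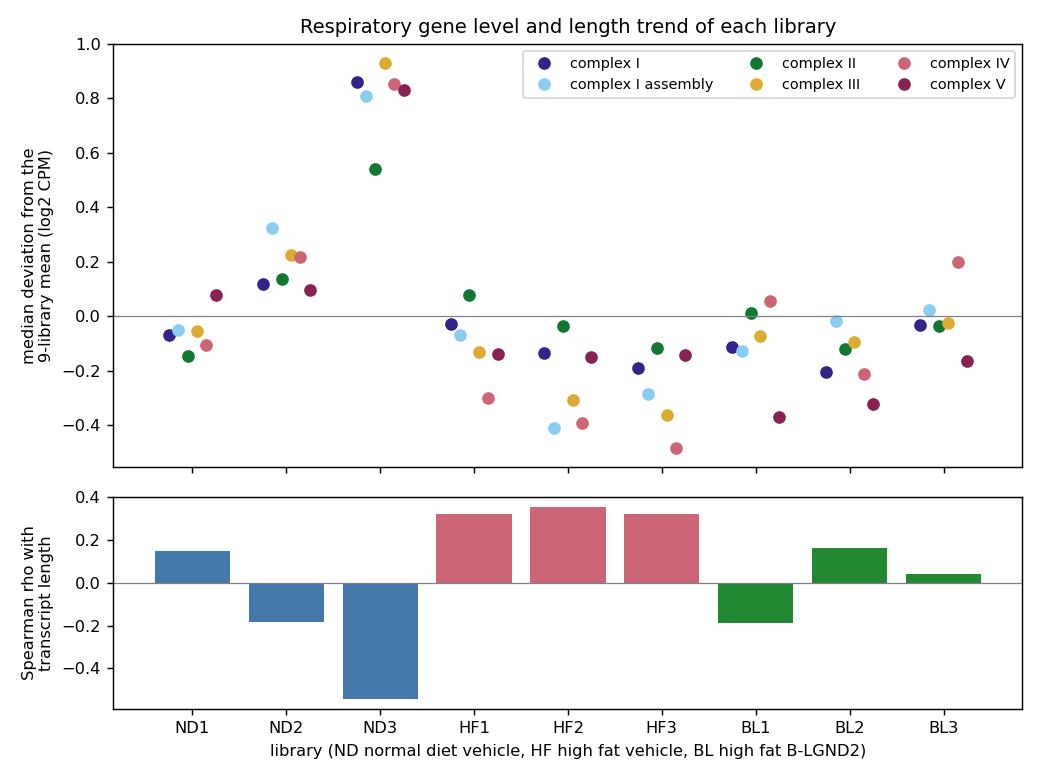
Top: for each library, the median deviation of the members of each complex from their 9-library mean (log2 CPM, 1 point per complex). Bottom: Spearman correlation across protein-coding genes between a library's deviation and transcript length. Normal diet replicate 3 is the highest library for every complex and has the lowest length correlation (-0.544); the 3 high fat vehicle libraries have the highest (0.322 to 0.355).

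The members spanned a wide range of levels. Per kilobase of transcript, the highest mean level over the 9 libraries was that of Cox8a (868 CPM per kb), a small membrane subunit of cytochrome c oxidase. It was followed by Uqcrq (829) and Uqcr10 (697), small subunits of complex III, and by Cox4i1 (508), the regulatory subunit of complex IV. Neighbours in this order overlap across libraries: Cox8a ran from 564 to 1447 CPM per kb and Uqcrq from 458 to 2004. In complex V, Atp5g3 (496), which encodes the proton-carrying c-ring, stood beside Atp5b (481), which encodes the catalytic beta subunit. In complex I the range was from Ndufa13 (272), an accessory subunit, to Ndufb2 (1.601). In complex II it was from the membrane anchor Sdhd (204) through Sdha (132), which carries FAD, and the anchor Sdhc (88.1) to the iron-sulfur subunit Sdhb (61.9). The lowest of complex III was Uqcrb (15.7) and the highest of the assembly factors was Ndufaf8 (24.8). Exons of Ndufa13 overlap those of Tssk6 on the opposite strand by 375 bases, and since the strand setting of the counting is not given, reads of such pairs cannot be told apart; 32 of the 94 members overlap another gene in this way or on the same strand.

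**Figure D2:**
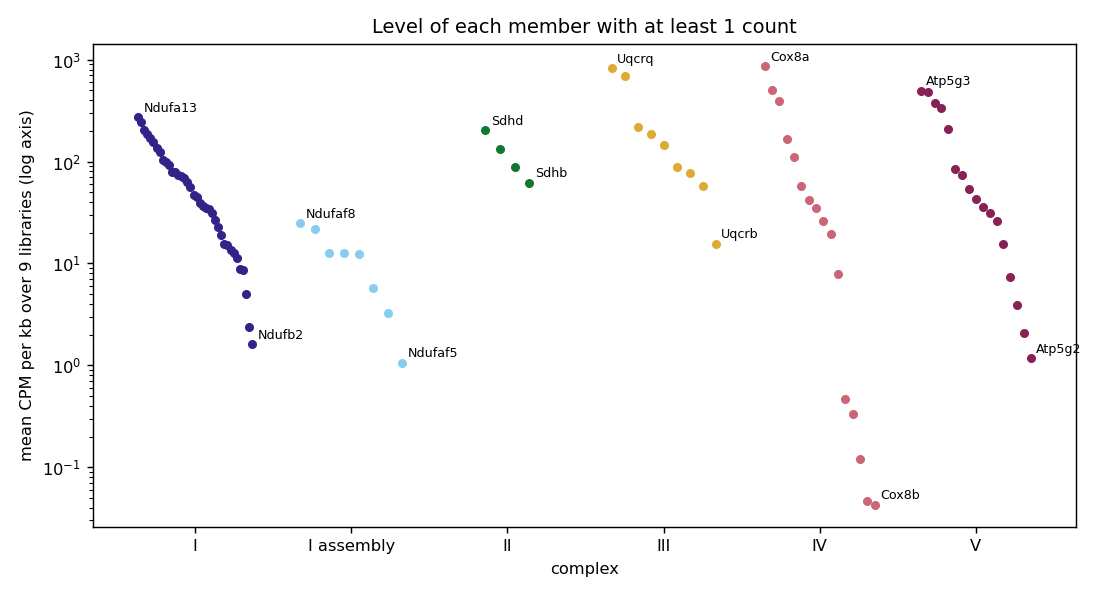
Mean CPM per kilobase of transcript over the 9 libraries (log axis) for each member with at least 1 count, by complex. The highest and lowest member of each complex are named; 5 genes of complex IV lie under 1 CPM per kb, apart from the rest.

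The isoforms known from liver were the ones detected. Cox4i1 had 23860 counts over the 9 libraries against 6 for Cox4i2, Cox6a1 had 13763 against 2 for the muscle form Cox6a2, and Cox6b1 had 5076 against 9 for the testis form Cox6b2. Cox7a2 had 4549 and the related Cox7a2l, a supercomplex factor, 2404, against 13 for the muscle form Cox7a1. Cox7b had 3577 and Cox7b2 none, and Cox8a had 29456 against 1 for the muscle form Cox8b and 0 for Cox8c. A count of 0 in a library allows up to 3 counts. The 3 genes for the c-ring encode the same mature protein. Of them, Atp5g3 had 21575 counts, Atp5g1 had 1261 and Atp5g2 had 42, with 87.4% of the 50-base words of Atp5g2 shared with other annotated genes, so its level is uncertain. Ndufa4 had 3723 counts and Ndufa4l2, its hypoxia-induced paralog, 136. The 10 members not tested were these 7 low complex IV isoforms, Atp5g2, Atp5l (71 counts, 84.9% of its words shared) and Ndufaf5 (76 counts). Over the whole set, 47 of 94 members shared no 50-base word with another gene and 3 shared at least 50%.

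The first comparison asks how high fat diet altered these genes under vehicle. Ndufa8 and Atp5f1 fell on high fat diet and no member rose. Below the threshold, the members lay mostly on the low side: 76 of 84 had a negative log2 fold change (49.6% of all genes did), with a median of -0.57 against 0.0054 over all 12102 genes tested. The 2 calls make up 2.38% of the members tested, near the 2.99% of all genes called (1.49% lower, 1.5% higher), so this count is not a result about the members; under other settings, given with Ndufa8 and Atp5f1, the members' share ran from 0% to 37.6% and that of all genes from 0.00826% to 15%. At an unadjusted p under 0.05, 38 members were lower and 0 higher, against 11.8% and 10.6% of all genes. The groups did not overlap for 32 members (38.1%, against 30.1% of all genes). Of these, 30 were lower in every high fat vehicle library (35.7%, against 14.8% of all genes) and 2 higher (2.38%, against 15.4%). In bulk tissue, fewer cells of a type and less RNA per cell cannot be told apart.

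Ndufa8 (chr2:36036326-36049406, GRCm38) encodes an accessory subunit of complex I that faces the intermembrane space. It stood at 125, 125 and 191 CPM in normal diet replicates 1, 2 and 3 and at 84.4, 67.4 and 72.3 CPM on high fat diet. All high fat vehicle libraries were below all normal diet libraries (74.7 ± 8.77 against 147 ± 38.2 CPM, mean ± SD, n = 3; log2 fold change -0.98, SE 0.22, adjusted p = 0.0308; edgeR quasi-likelihood F test, Benjamini-Hochberg adjustment over all genes, as for each adjusted p that follows). Its B-LGND2 libraries, at 95.2, 108 and 97.3 CPM, lay between the other groups. Atp5f1 (chr3:105942698-105960099) encodes subunit b of the peripheral stalk that holds ATP synthase together. It stood at 86.4, 94.4 and 154 CPM on normal diet, against 55.1, 55.8 and 46.6 in the high fat vehicle group, again without overlap (log2 fold change -1.09, SE 0.28, adjusted p = 0.0466). Exons of Atp5f1 and Wdr77 overlap on opposite strands, and 38.7% of the 50-base words of Atp5f1 are shared with other genes. No member was called with normal diet replicate 2 or 3 or any single high fat vehicle library left out (39, 9 and 25 to 31 at an unadjusted p under 0.05). In these fits 0.28% to 0.712% of all genes were called. Without normal diet replicate 1, 32 of 85 members were called (37.6%; 15% of all genes tested), all lower. Without B-LGND2 replicate 3, 1 was (1.16%; 2.45%). Atp5f1 also lost its call without B-LGND2 replicate 2 or 3, and the adjusted p after such omissions was at most 0.151 for Ndufa8 and 0.208 for Atp5f1. DESeq2 called 17 members, all lower (20.2%; 8.13% of all genes), and limma-voom 1 (1.19%; 2.56%).

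Complex III showed a gap between its small subunits and the rest. The 5 small subunits Uqcr10, Uqcrq, Uqcrh, Uqcr11 and Uqcrb all had negative values, from -1.41 to -0.86 (median -1.14; -0.60 with length and GC offsets and -0.50 without normal diet replicate 3, all 5 negative in both). The core proteins Uqcrc1 (0.10) and Uqcrc2 (-0.09), the heme protein Cyc1 (-0.03) and the Rieske iron-sulfur protein Uqcrfs1 (-0.47) were nearer 0. None of the 9 passed the test, the lowest adjusted p being that of Uqcrq (log2 fold change -1.19, SE 0.34, adjusted p = 0.0663). Uqcrq stood at 283, 440.2 and 1009.8 CPM on normal diet, against 261, 231 and 269 in the high fat vehicle group. Uqcr10 stood at 138, 323 and 771 CPM on normal diet, against 166, 135 and 164 in the high fat vehicle group (log2 fold change -1.41, SE 0.44, adjusted p = 0.0903), with replicate 1 of normal diet among the high fat values. Both genes had their highest level in normal diet replicate 3. The small subunits have transcripts of 434 to 535 bases, and those of the other 4 are 1363 to 1896 bases. The sorting into these classes was made after the values were seen and was not tested.

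In complex I, the 29 accessory subunits all had negative values (median -0.59), and Ndufa8 was the only one called; 27 were negative without scaling, 23 with length and GC offsets and 24 without normal diet replicate 3, with medians of -0.40, -0.19 and -0.22. The 7 core subunits, which carry the flavin and iron-sulfur clusters or the quinone site, were less uniform. Of these 7, 5 were negative (3 without scaling or with length and GC offsets). The split into core and accessory subunits was not tested. Ndufv1, which binds NADH, was at 0.05 and Ndufs1 at -0.06. Ndufs3 was the highest of the complex (log2 fold change 0.48, SE 0.35, adjusted p = 0.445) and Ndufb4 the lowest (log2 fold change -1.06, SE 0.51, adjusted p = 0.231). The 7 assembly factors tested were all negative (median -0.66; -0.39 without normal diet replicate 3) and none was called.

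Complex IV members were low in the high fat vehicle group, at a median of -0.81, with 9 of 11 negative and none called. That median was -0.37 without normal diet replicate 3 and -0.37 with length and GC offsets. Cox8a, the most abundant member per kilobase, stood at 436, 539 and 796 CPM on normal diet, against 310.2, 346 and 324 in the high fat vehicle group (log2 fold change -0.85, SE 0.23, adjusted p = 0.0559). Cox6a1 stood at 256, 262 and 343 and 171, 165 and 144 CPM in the same order (log2 fold change -0.84, SE 0.24, adjusted p = 0.0593). In both genes the groups did not overlap. Cox4i1 had a value of -0.99 and Cox7a2 the lowest of the complex (-1.01), while Cox5a (0.11) and Cox5b (0.17) were slightly positive. Summed over the 18 complex IV genes, levels were 1149, 1558 and 2557 CPM in normal diet livers, 990, 949 and 940 in the high fat vehicle group and 1669, 1193 and 1552 with B-LGND2. The high fat vehicle sums were below all 6 others.

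Complex V was uneven on high fat diet. The catalytic subunits Atp5a1 (0.26) and Atp5b (0.11) had small positive values, without passing the test (adjusted p = 0.448 and 0.787). For both, every high fat vehicle library was above every normal diet library, as for 15.4% of all genes. The nearest Atp5b values were 979.7 CPM in high fat vehicle replicate 1 and 979.0 CPM in normal diet replicate 2. The c-ring gene Atp5g3 stood at 347, 506 and 607 CPM on normal diet, against 309, 269.8 and 259 in the high fat vehicle group (log2 fold change -0.80, SE 0.23, adjusted p = 0.0634). Atp5g1 had the lowest value of the complex (log2 fold change -1.20, SE 0.38, adjusted p = 0.0863). The 15 complex V genes tested had a median of -0.48 (-0.22 without normal diet replicate 3 and -0.13 with length and GC offsets). Complex II had the smallest shift of the complexes, with a median of -0.22 over its 4 genes: Sdhd -0.59, Sdhc -0.27, Sdhb -0.18 and Sdha 0.31, none called. It was -0.018 without normal diet replicate 3 and -0.11 with the offsets. The medians of complexes I and III, -0.50 and -0.86, were -0.14 and -0.40 without that library and -0.11 and -0.24 with the offsets.

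The diet values followed transcript length among the members as among all genes. The 51 members under 1000 bases had a median of -0.67 and the 33 longer ones -0.31. The same medians over protein-coding genes tested were -0.55 for the 812 short ones and 0.06 for the long ones. Across the 84 members the Spearman correlation of fold change with length was 0.381 (0.465 across all protein-coding genes), and with GC content -0.099. These correlations are over genes of the same 9 libraries and are no test. With offsets for length and GC content in each library, the median of the members was -0.20 and none was called (18 at an unadjusted p under 0.05). Of all genes, 2.05% were called with these offsets. Leaving out normal diet replicate 3 gave a median of -0.23, and both steps together, an alternative chosen after seeing the data, gave -0.08.

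**Figure D3:**
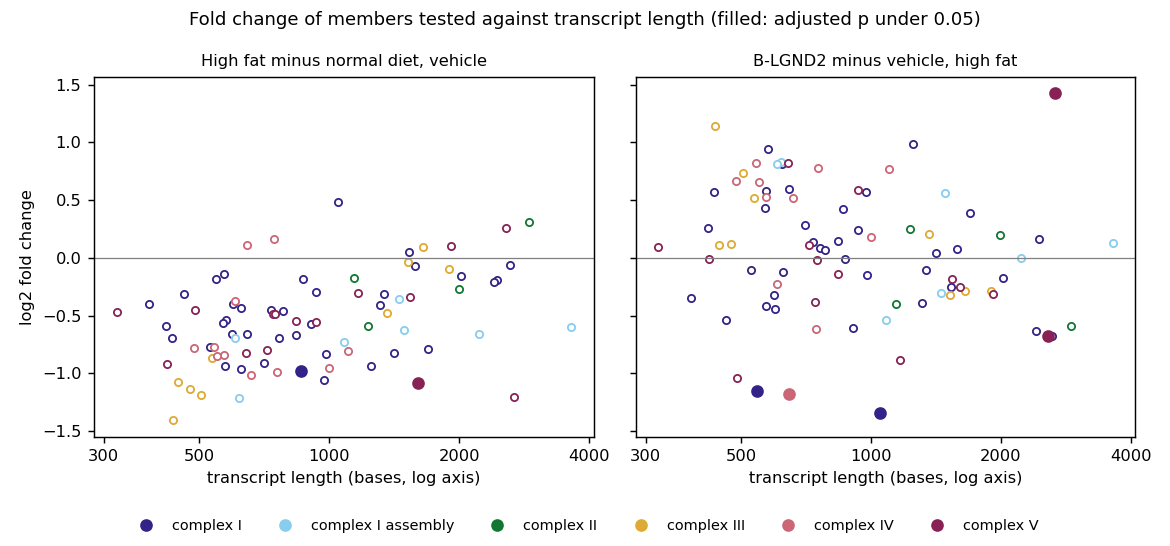
Log2 fold change of the 84 members tested against transcript length (bases, log axis), high fat minus normal diet on the left and B-LGND2 minus vehicle on the right. Colours give the complex and filled points passed the test; on the left most members under 1000 bases lie below 0 (median -0.67), and on the right they lie on both sides (median 0.14).

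The second comparison, of B-LGND2 with vehicle on the high fat diet, asks what the ligand altered. Atp5g1 rose with B-LGND2, and Ndufa11, Ndufs3, Cox5a and Atp5a1 fell. The members as a set had no common direction: 46 were positive and 38 negative (50.3% of all genes negative), with a median of 0.08 against -0.0031 over all genes. That median was -0.084 without scaling, -0.10 with length and GC offsets and -0.021 without B-LGND2 replicate 3. The 5 calls are 5.95% of the members tested, near the 5.63% of all genes (3.07% higher, 2.56% lower). At an unadjusted p under 0.05, 16 members were higher and 9 lower, against 12.8% and 10.9% of all genes. Groups did not overlap for 39 members (46.4%, against 33.6% of all genes). Of these, 21 were higher (25%, against 16.4% of all genes) and 18 lower (21.4%, against 17.2%). The high fat vehicle libraries serve in this comparison and in the one before it, so the values of the 2 comparisons are not independent.

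Ndufa11 (chr17:56717767-56722141) encodes a membrane subunit of complex I. It stood at 18.1, 22.6 and 18.8 CPM in high fat vehicle replicates 1, 2 and 3 and at 8.46, 8.39 and 9.99 CPM with B-LGND2. All B-LGND2 libraries were below all 6 others, whose normal diet values were 26.4, 17.2 and 23.9 CPM. The level was 8.95 ± 0.907 against 19.8 ± 2.38 CPM (n = 3 each; log2 fold change -1.15, SE 0.25, adjusted p = 0.0191). The window printed above for this gene carries the overlapping NRF1 words, and 6.10% of its 50-base words are shared with other genes. The call was lost without any single high fat vehicle library or B-LGND2 replicate 1, with an adjusted p of at most 0.101.

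Ndufs3 (chr2:90894634-90904827) encodes a core subunit of complex I next to the quinone site. It stood at 11.2, 15.04 and 11.99 CPM with vehicle and 2.43, 4.86 and 7.99 CPM with B-LGND2, without overlap (log2 fold change -1.35, SE 0.37, adjusted p = 0.0437). These are low levels, and 39.7% of its 50-base words are shared with other genes, among them Kbtbd4, whose exons overlap it on the opposite strand. Cox5a (chr9:57521274-57532426) encodes a matrix-side subunit of cytochrome c oxidase. It stood at 18.1, 15.2 and 14.4 CPM with vehicle and 3.24, 8.83 and 9.16 CPM with B-LGND2 (log2 fold change -1.18, SE 0.34, adjusted p = 0.0489), with 32.1% of its words shared. B-LGND2 replicate 1 was the lowest of all 9 libraries for both genes.

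Atp5a1 (chr18:77773729-77782869) encodes the alpha subunit of the catalytic head of ATP synthase, and its call is the one at the highest level. It stood at 660.1, 699 and 619.6 CPM with vehicle and 381, 438 and 420.5 CPM with B-LGND2, a smaller change than the others (log2 fold change -0.67, SE 0.19, adjusted p = 0.0489). On normal diet it stood at 543, 568 and 544 CPM, between the other groups. Atp5g1 (chr11:96068852-96075670), a minor gene for the c-ring, moved the other way, from 10.2, 9.02 and 10.6 CPM with vehicle to 36.1, 28.4 and 15.3 CPM with B-LGND2 (log2 fold change 1.42, SE 0.38, adjusted p = 0.0418). Its normal diet libraries, at 13.7, 15.7 and 39.1 CPM, spread as widely as the B-LGND2 libraries, and 11.6% of its words are shared, with 366 other genes. The major c-ring gene Atp5g3 was at 309, 269.8 and 259 CPM with vehicle and 264, 302 and 340.2 with B-LGND2 (adjusted p = 0.800).

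Each of these calls was lost with some single library left out. No member was called without any single high fat vehicle library (16 to 18 at an unadjusted p under 0.05) or without B-LGND2 replicate 1 (13). In these fits 0.801% to 1.49% of all genes were called. Without B-LGND2 replicate 2 or 3, 2 and 3 were called (2.35% and 3.49%; 5.6% and 3.39% of all genes), and without normal diet replicate 1, 2 or 3, which enter here only through the shared fit, 11, 2 and 19 (12.9%, 2.38% and 22.6%; 9.79%, 3.78% and 11.6% of all genes). Atp5g1 lost its call without any high fat vehicle library or B-LGND2 replicate 1 or 2 (adjusted p at most 0.176), and Ndufs3 without these or normal diet replicate 2 (at most 0.171). Cox5a and Atp5a1 lost theirs without any library of either group or normal diet replicate 2 (at most 0.162 and 0.198). DESeq2 called 11 members, 4 higher and 7 lower (13.1%; 9.28% of all genes). With length and GC offsets 9 were called, all lower (10.7%; 7.5% of all genes), and Atp5g1 was at an adjusted p of 0.0539.

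**Figure D4:**
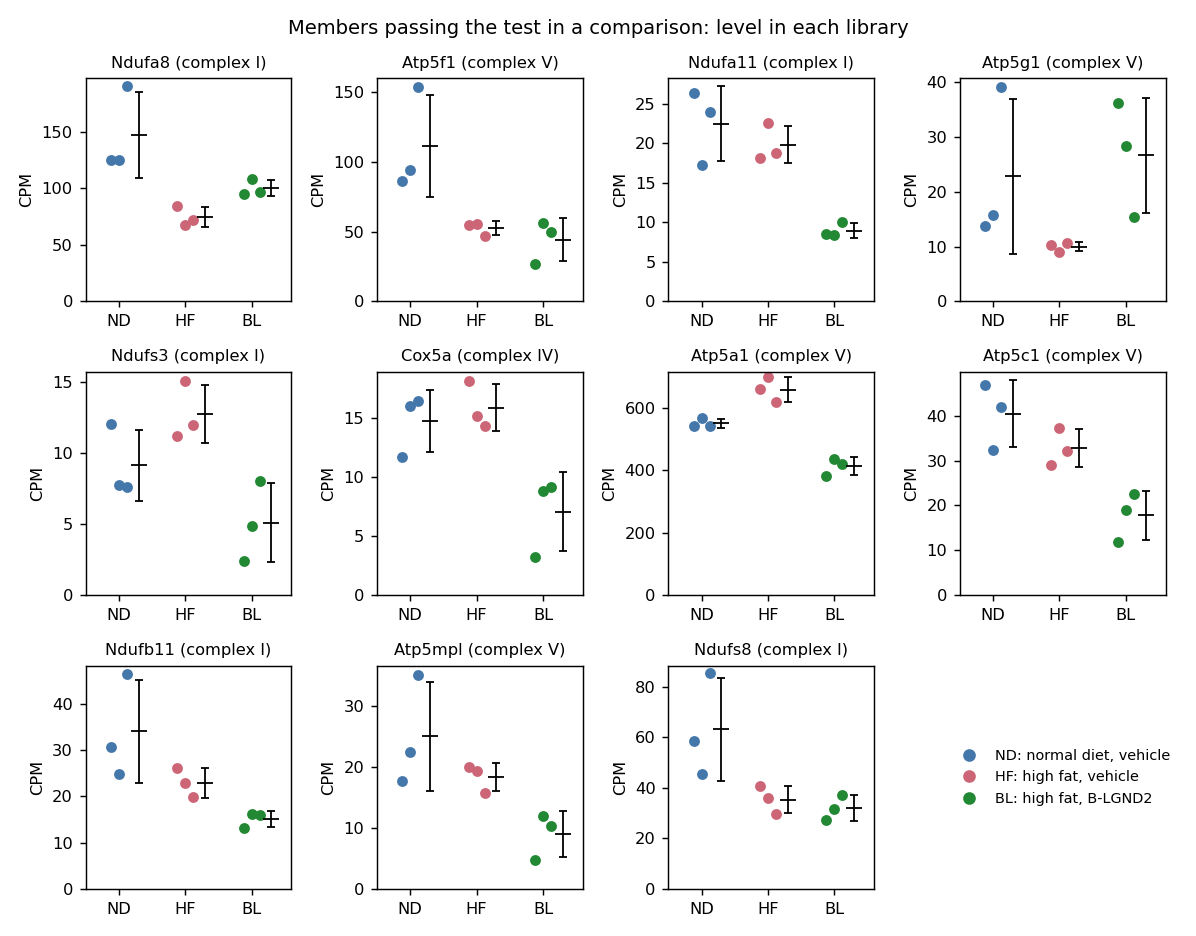
CPM in each library for the 11 members that passed the test in any comparison (points, replicates 1 to 3 from left to right; bars, mean ± SD of 3 libraries). The high fat vehicle libraries lie close together in each panel; the B-LGND2 libraries of Ndufa11 (8.39 to 9.99 CPM) lie below those of both other groups.

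By complex, complex IV had the highest median with B-LGND2, 0.53, with 8 of 11 positive (0.37 without scaling and 0.20 with length and GC offsets). Cox7c stood at 14.3, 16.5 and 15.1 CPM with vehicle and 21.8, 19.6 and 40.3 with B-LGND2 (log2 fold change 0.82, SE 0.32, adjusted p = 0.127), and Cox8a at 310.2, 346 and 324 and 573, 448 and 525 CPM (log2 fold change 0.66, SE 0.23, adjusted p = 0.0997). Cox5a and Cox5b (-0.62), the pair of larger matrix-facing subunits, were on the other side. Cox4i1, also a larger subunit, was positive (log2 fold change 0.78, adjusted p = 0.168). In complex III all 5 small subunits were positive (median 0.52; 3 of 5 without scaling or with length and GC offsets), led by Uqcr10 at 166, 135 and 164 CPM with vehicle and 422, 305 and 299 with B-LGND2 (log2 fold change 1.14, SE 0.44, adjusted p = 0.134). Uqcrc1, Uqcrc2 and Cyc1 were at -0.28, -0.29 and -0.32, and Uqcrfs1 at 0.21. In complex I, 6 of 7 core subunits were negative, with a median of -0.26 (Ndufs1 -0.68, Ndufv1 -0.26). All 7 were negative without scaling or with length and GC offsets. Of 29 accessory subunits, 18 were positive (median 0.14), and 12 were without scaling or with the offsets. With the rRNA share as covariate, 4 of 7 core subunits were negative and 17 of 29 accessory subunits positive. The split into core and accessory subunits was not tested. The highest of complex I was Ndufa13 (log2 fold change 0.99, SE 0.31, adjusted p = 0.0685).

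Complex II had 2 positive and 2 negative genes with B-LGND2. Sdha, the catalytic subunit, stood at 483, 475 and 436 CPM with vehicle and 230.1, 346 and 348 with B-LGND2 (log2 fold change -0.59, SE 0.22, adjusted p = 0.112), without overlap, and Sdhd had the highest value of the complex (0.25). In complex V, 10 of 15 genes were negative (median -0.14; 12 of 15 without scaling, 5 of 15 with the rRNA share as covariate). Atp5b had a value of -0.32, and the small membrane proteolipid gene Atp5mpl had the lowest (log2 fold change -1.04, SE 0.33, adjusted p = 0.0752). Summed over the 17 complex V genes, levels were 2623, 2678 and 2506 CPM with vehicle and 2390, 2256 and 2272 with B-LGND2, and 2608, 2851 and 3588 on normal diet. All B-LGND2 sums were below the vehicle sums, although 3 against 3 libraries cannot give an exact two-sided p under 0.1. Atp5b and Atp5a1, the complex V genes with the highest levels, had means of 1012 and 660 CPM with vehicle and 813 and 413 with B-LGND2. The mean sums were 2602 and 2306 CPM. The falls of Atp5b and Atp5a1 together were larger than that of the sum, so the sum does not describe the other complex V genes. Atp5d rose from a mean of 267 to 402 CPM. The members under 1000 bases had a median of 0.14 and the longer ones -0.18, against 0.30 and -0.04 over all short and long protein-coding genes.

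**Figure D5:**
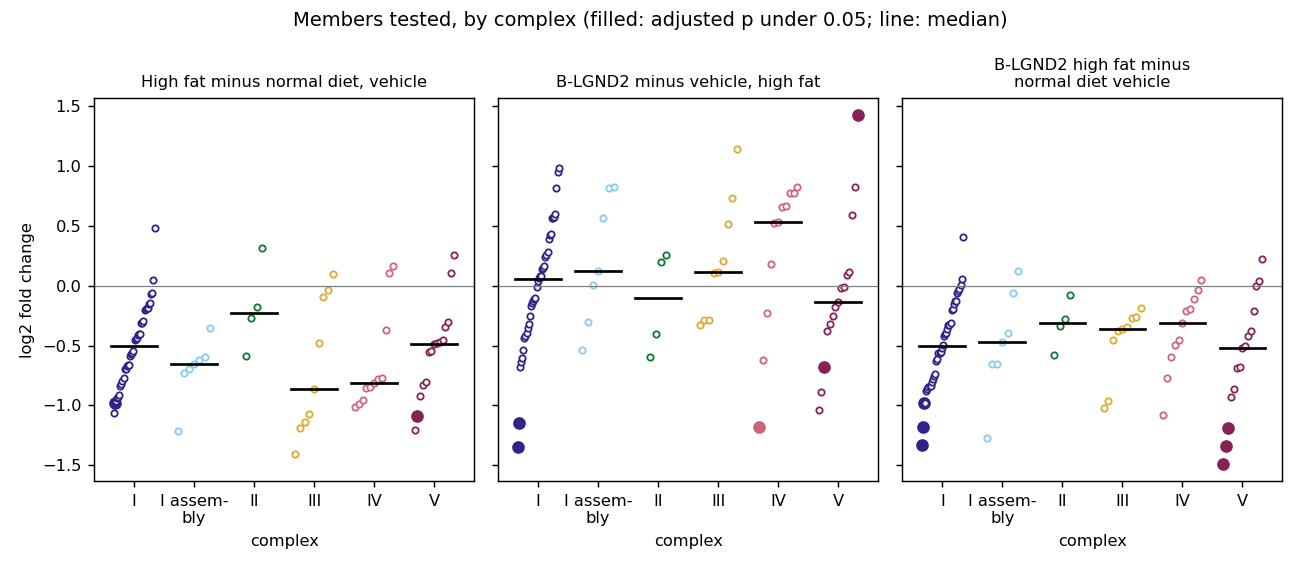
Log2 fold change of each of the 84 members tested in the 3 comparisons, by complex (points; filled where adjusted p was under 0.05; black lines, medians). High fat against normal diet, all medians lie below 0 (-0.22 to -0.86); B-LGND2 against vehicle, they run from -0.14 to 0.53.

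The last comparison sets B-LGND2 on high fat diet beside vehicle on normal diet, so diet and ligand differ together. It shares a group with each of the others. Ndufa11, Atp5f1, Atp5c1, Ndufb11, Atp5mpl and Ndufs8 were lower in treated livers and no member was higher. The 6 calls are 7.14% of the members tested, against 2.93% of all genes (1.33% lower, 1.59% higher). Negative values were found for 77 of 84 members (50.5% of all genes), with a median of -0.44 against -0.0058. At an unadjusted p under 0.05, 33 members were lower and 0 higher, against 9.26% and 10.2% of all genes. The groups did not overlap for 27 members (32.1%; 20.5% of all genes), all of them lower in every treated library (10% of all genes were).

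Ndufa11, whose values are given above, fell from 22.5 ± 4.74 to 8.95 ± 0.907 CPM (log2 fold change -1.33, SE 0.25, adjusted p = 0.00992), and it kept its call in all 9 fits with 1 library omitted (adjusted p at most 0.0441). Atp5f1 fell from 111 ± 36.7 to 44.2 ± 15.4 CPM, its treated libraries being at 26.9, 56.4 and 49.5 CPM (log2 fold change -1.34, SE 0.28, adjusted p = 0.0198). Atp5c1 (chr2:10056016-10080510) encodes the gamma subunit, the rotating shaft of ATP synthase. It stood at 46.9, 32.2 and 42.05 CPM on normal diet, 29.02, 37.3 and 32.1 in the high fat vehicle group and 11.8, 18.98 and 22.6 with B-LGND2 (log2 fold change -1.19, SE 0.26, adjusted p = 0.0250). Atp5mpl (chr12:111961375-111966977) stood at 17.8, 22.5 and 35.1 CPM on normal diet, 20.1, 19.4 and 15.8 in the high fat vehicle group and 4.75, 12.1 and 10.32 with B-LGND2 (log2 fold change -1.49, SE 0.33, adjusted p = 0.0257). For both genes the treated libraries were below all 6 others.

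Ndufb11 (chrX:20615326-20617619) encodes an accessory subunit of the membrane arm of complex I. It stood at 30.7, 24.8 and 46.5 CPM on normal diet, 26.2, 22.9 and 19.8 in the high fat vehicle group and 13.1, 16.2 and 15.99 with B-LGND2 (log2 fold change -1.18, SE 0.26, adjusted p = 0.0250), and 17.5% of its words are shared, partly with the overlapping Rbm10. Ndufs8 (chr19:3908863-3912774), a core subunit that carries iron-sulfur clusters, stood at 58.5, 45.6 and 85.3 CPM on normal diet, 40.6, 35.9 and 29.7 in the high fat vehicle group and 27.3, 31.5 and 37.3 with B-LGND2 (log2 fold change -0.98, SE 0.25, adjusted p = 0.0454). Its treated and high fat vehicle libraries overlapped. The number of calls was 11 without normal diet replicate 1, 4 without replicate 2, 2 without replicate 3, and 1, 3 and 5 without B-LGND2 replicates 1, 2 and 3. These are 1.18% to 12.9% of the members tested, against 0.888% to 5.16% of all genes. Without normal diet replicate 3 the median was -0.16. Besides Ndufa11, each call was lost in at least 1 of these fits. Atp5f1 lost it without normal diet replicate 3 or B-LGND2 replicate 1 (adjusted p = 0.0508 and 0.0838), and Atp5c1 without B-LGND2 replicate 1 or 2 (0.0927 and 0.0561). Ndufb11 lost it without normal diet replicate 3 or any B-LGND2 library (at most 0.104). Atp5mpl lost it without normal diet replicate 2 or 3 or B-LGND2 replicate 1 or 3 (at most 0.103), and Ndufs8 without any library but normal diet replicate 1 (at most 0.162).

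By complex, the medians in this comparison were -0.51 for complex I, -0.47 for its assembly factors, -0.31 for complex II, -0.36 for complex III, -0.31 for complex IV and -0.52 for complex V. Without normal diet replicate 3 they were -0.14, -0.29, -0.18, -0.13, 0.077 and -0.37 in the same order, so complex IV changed sign. Groups did not overlap for 9 of the 15 complex V genes tested (60%) and for 11 of the 38 of complex I (28.9%). All of these were lower in treated livers. Over all members tested the share was 32.1%, and 10% of all genes were lower without overlap. The highest value of each complex was that of Ndufc2 (0.41), Sdhc (-0.08), Uqcrc1 (-0.19), Cox7c (0.05) and Atp5g1 (0.22), from complex I to V. The lowest in complexes II, III and IV were Sdhb (-0.58), Uqcrh (-1.02) and Cox5a (-1.08), none called. The core subunits Ndufs1, Ndufv1, Sdha, Cyc1, Atp5a1 and Atp5b were at -0.74, -0.20, -0.28, -0.36, -0.42 and -0.21.

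The members also differed in how much they varied between libraries. Within the high fat vehicle group the median SD of the members was 0.146 on the log2 CPM scale (0.198 over all genes tested), against 0.457 on normal diet (0.363) and 0.339 with B-LGND2 (0.351). Among members with more than 3 counts in each library, the ratio of the highest to the lowest of the 9 libraries was smallest for Ndufv1 (1.41) and Atp5b (1.49) and largest for Atp5mpl (7.40) and Ndufb4 (7.07), genes chosen after their values were seen. Ndufb4 stood at 9.05, 7.77 and 28.1 CPM on normal diet, 6.60, 6.92 and 8.08 in the high fat vehicle group and 11.6, 3.97 and 16.7 with B-LGND2. Normal diet replicate 3 stood far from the rest of its group, and the B-LGND2 libraries were widely spread.

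The subunits encoded by mitochondrial DNA were not called in any comparison, 7 of the 13 being tested and the other 6 (mt-Nd3, mt-Nd4l, mt-Co2, mt-Co3, mt-Atp6 and mt-Atp8) listed at 0 counts in all libraries. Their medians were -0.14, -0.04 and -0.35 in the order of the comparisons above, and 1, 0 and 0 had an unadjusted p under 0.05. The summed level was 32326 to 115476 CPM on normal diet, where replicate 1 was highest, 47623 to 50755 on high fat diet and 37392 to 62286 with B-LGND2. Cycs, which encodes cytochrome c, was not called either, at 1.56, 2.65 and 2.35 CPM on normal diet, 3.13, 2.26 and 1.95 in the high fat vehicle group and 2.90, 3.97 and 2.66 with B-LGND2. Among 30 tested assembly factors of complexes II to V, none was called on high fat diet (8 at an unadjusted p under 0.05; median -0.43). With B-LGND2, Uqcc3, a complex III assembly factor, rose (log2 fold change 1.08, SE 0.30, adjusted p = 0.0481), and in the last comparison none was called (5). The Uqcc3 call was lost without normal diet replicate 2, any high fat vehicle library or B-LGND2 replicate 1 or 3 (adjusted p at most 0.207). None of the 7 further complex I assembly factors tested was called (1 at an unadjusted p under 0.05 in each comparison).

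Of the 14 citric acid cycle genes, none was called with diet (0 at an unadjusted p under 0.05) or with B-LGND2 against vehicle (4). In the last comparison Suclg2, a succinyl-CoA ligase subunit, was lower (log2 fold change -0.90, SE 0.23, adjusted p = 0.0450), a call kept in 1 of the 9 fits without a library, the one without B-LGND2 replicate 2 (adjusted p at most 0.152). Slc25a4, an ATP/ADP carrier with low levels in liver, stood at 2.18, 4.47 and 4.43 CPM on normal diet, 4.12, 3.76 and 5.16 in the high fat vehicle group and 12.3, 10.6 and 9.66 with B-LGND2. It rose with B-LGND2 (log2 fold change 1.32, SE 0.33, adjusted p = 0.0307) and was higher in treated than in normal diet livers (log2 fold change 1.55, SE 0.33, adjusted p = 0.0210). The first call was lost without any high fat vehicle library or B-LGND2 replicate 1 (at most 0.149), and the other without normal diet replicate 2 or B-LGND2 replicate 1 (at most 0.0791). The main liver carriers Slc25a5 and Slc25a3, for adenine nucleotides and phosphate, were not called in any comparison.

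Among 15 tested regulators of the respiratory genes, Esrrg and Ppara rose on high fat diet, and Esrrg and Yy1 fell with B-LGND2. Esrrg encodes ERR gamma, a nuclear receptor that activates oxidative genes. It stood at 2.03, 1.82 and 0.692 CPM on normal diet, 6.10, 7.22 and 6.83 in the high fat vehicle group and 1.27, 0.883 and 1.17 with B-LGND2, with the high fat vehicle libraries above all others (log2 fold change 2.16, SE 0.43, adjusted p = 0.0206; with B-LGND2 log2 fold change -2.57, SE 0.44, adjusted p = 0.00506). These are low levels. The fall with B-LGND2 was called in all 9 fits with 1 library omitted (adjusted p at most 0.0297). Of the 13 other alternatives in which Esrrg was tested, 12 kept that call, and the highest adjusted p was 0.940. Ppara, the fatty acid receptor that drives fat oxidation, stood at 103, 101 and 47.2 CPM on normal diet, 212, 224 and 174 in the high fat vehicle group and 96.3, 102 and 152 with B-LGND2 (log2 fold change 1.28, SE 0.28, adjusted p = 0.0290). The diet calls of Esrrg and Ppara were lost without normal diet replicate 2 or 3 or any high fat vehicle library (at most 0.0821 and 0.108). Yy1 stood at 29.02, 33.4 and 29.6 CPM with vehicle and 7.42, 17.95 and 16.2 with B-LGND2 (log2 fold change -1.16, SE 0.29, adjusted p = 0.0307), a call lost without any high fat vehicle library or B-LGND2 replicate 1 or 3 (at most 0.127). Nrf1 and Gabpa, which encode the factors of the NRF1 and ETS words above, were not called (-0.30 and 0.54 with diet, -0.27 and -0.50 with B-LGND2). Nor was Ppargc1a, which encodes PGC-1 alpha (0.88 and -1.08).

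Cell type markers moved with B-LGND2 beside these values. Of 14 macrophage markers, 10 rose against high fat vehicle and 0 fell, and their summed level was 401 to 517 CPM with vehicle, 1273 to 1607 with B-LGND2 and 407 to 657 on normal diet. None of the 14 was at 0 in all libraries. Of 10 endothelial markers, 1 (Kdr) rose, with sums of 227 to 285 and 342 to 415 CPM, and of 9 hepatocyte markers, 1 (Apoa1) rose, with sums of 81423 to 88242 and 80937 to 118485 CPM. Of 3 cholangiocyte markers tested, 1 (Spp1) rose, and no gene of the stellate cell, erythroid or adipocyte lists was called (9, 5 and 1 tested; 2, 2 and 1 at an unadjusted p under 0.05). In treated against normal diet livers, 10 of 14 macrophage markers and 3 of 10 endothelial markers (Cdh5, Stab2 and Lyve1) were higher, and no gene of the other lists was called (1 hepatocyte, 3 stellate cell, 2 cholangiocyte, 2 erythroid and 1 adipocyte marker had an unadjusted p under 0.05). None of these lists had a called gene on high fat against normal diet by edgeR. An unadjusted p under 0.05 was found there for 2 macrophage, 2 endothelial, 3 hepatocyte, 2 erythroid and 1 stellate cell marker. Erythroid sums were 142, 304 and 550 CPM in normal diet replicates 1, 2 and 3 and 114 to 236 in the high fat vehicle group. Adipocyte sums were 0.156, 0.662 and 8.99 CPM in the same normal diet order and 1.65 to 1.67 in the high fat vehicle group. The part of these cell types in the members' values was not tested.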

How the data were processed

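Poly(A)-enriched RNA of 9 liver samples was sequenced on an Ion Torrent Proton, per the labels' protocols. The submitters' processing notes name HTSeq 0.6.1p1, DESeq2 1.6.3, the aligners TopHat2 2.0.13 and Bowtie2 2.2.4, SAMtools 0.1.19 and build GRCm38.p3. The sources used here do not give the annotation release, strand setting or counting mode. Raw read counts per Ensembl gene are what the authors deposited. Symbols, coordinates (1-based gene spans) and transcript lengths came from GENCODE M21 on GRCm38, lengths being the median over a gene's basic transcripts. CPM per kb depends on that length.

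Counts were analysed in R 4.3.3 with edgeR 4.0.16: filterByExpr (minimum count 10; 12102 genes, at least 99.7% of each library's counts), TMM scaling and 1 robust quasi-likelihood fit to all 9 libraries (6 residual degrees of freedom), with 3 two-sided contrasts and Benjamini-Hochberg adjustment over all genes tested, threshold 0.05. An SE is the absolute log2 fold change divided by the square root of F. The script was tested on simulated data. Shared sequence was scored as the share of 50-base words of a member's longest basic transcript found in transcripts of other genes. Counts are not molecules, so floors cover counting error only.

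Members and gene lists were chosen with earlier results of these data known. Members were named by rule: every called member, the highest and lowest fold change of each complex, the isoform sets, the core subunits, and the highest and lowest level of each complex; other members named were chosen after their values were seen. Of the core subunits in this rule, 1 was left out and is not reported here. From the other lists, called genes and up to 3 more per list were named. Alternatives tried were no scaling, scaling by DESeq2 size factors, no filter, at least 50 counts in 3 libraries, DESeq2 1.42.0, limma-voom (limma 3.58.1), no robust option, only the 2 groups compared, a replicate block, length and GC offsets (splines with 4 degrees of freedom) with and without that block, the rRNA share as covariate, rRNA and mitochondrial genes left out, and each library left out in turn.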

Additional observations from a re-analysis of the deposited data

How the results depend on the processing

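The direction of the diet median (-0.57) and of the median for treated against normal diet livers (-0.44) held in all alternatives run; the B-LGND2 median (0.08) did not keep its sign. Members called were 2 (diet), 5 (B-LGND2 against vehicle) and 6 (treated against normal diet). Without scaling, which shifts the all-gene median by 0.17 for diet and -0.18 for B-LGND2, diet had 0 calls (2.96% of all genes). The B-LGND2 median was then -0.084. Without a filter there were 25, 13 and 13 calls among 92 members (27.2%, 14.1% and 14.1%; 5.49%, 6.25% and 3.49% of all genes), by DESeq2 17, 11 and 9 (20.2%, 13.1% and 10.7%; 8.13%, 9.28% and 5.45%), and by limma-voom 1 for diet (1.19%; 2.56%). Without the robust option there were 1 and 3 for diet and B-LGND2 (1.19% and 3.57%, against 2.9% and 5.23% of all genes). With only the 2 groups compared there were 0, 17 and 2 (0%, 20.2% and 2.38%, against 1.31%, 12.1% and 1.23% of all genes). B-LGND2 calls were 3 with DESeq2 size factors (3.57%, against 5.45% of all genes) and 3 with rRNA and mitochondrial genes left out (3.57%, against 5.44%). With length and GC offsets the medians were -0.20 for diet and -0.10 for B-LGND2. Calls were 0 and 9 (0% and 10.7%, against 2.05% and 7.5% of all genes). Without normal diet replicate 3 as well (chosen after seeing the data) the medians were -0.081 and -0.10. Calls were then 0, 13 and 3 (0%, 15.5% and 3.57%, against 0.532%, 10.8% and 1.74% of all genes). With the rRNA share as covariate there were 0, 0 and 0 calls (0.00826%, 0.0165% and 0.0992% of all genes) and a B-LGND2 median of 0.25. That share did not overlap between groups, so group and share cannot be told apart in this fit. Leaving out a library gave 0 to 32 calls for diet (0% to 37.6%, against 0.28% to 15% of all genes). For B-LGND2 it gave 0 to 19 (0% to 22.6%, against 0.801% to 11.6%). For treated against normal diet it gave 1 to 11 (1.18% to 12.9%, against 0.888% to 5.16%). Medians ran from -0.69 to -0.23 and from -0.021 to 0.16 in the first pair of comparisons.

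The labels do not say whether replicate numbers pair the samples. Correlations of same-numbered samples, taken on deviations from group means, ran from -0.193 to 0.124. In the order of the comparisons above, 2, 4 and 1 of 6 samples correlated best with their own number. With n = 3 for each group, these values cannot decide whether the samples were paired. With the replicate block 0, 1 and 5 members were called (0%, 1.19% and 5.95%, against 1.68%, 4.07% and 2.09% of all genes). With length and GC offsets and the block, diet had 0 calls (1.17% of all genes) and the medians were -0.19 for diet and -0.14 for B-LGND2.

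Of 1583 values of single genes under alternatives, 36 changed sign, and none of those was called in the alternative. Of members called, 2 changed sign, both with the rRNA covariate and B-LGND2: Atp5g1 (-0.71) and Ndufs3 (1.10), with adjusted p of 0.981 and 0.980; the cause was not tested. That covariate also turned Ndufs3 (-0.80), Cox5b (-1.53), Ndufs1 (0.27), Cyc1 (0.17) and Cox5a (-0.28) for diet, Uqcrfs1 (-0.29) for B-LGND2, and Ndufc2 (-0.042) and Atp5g1 (-0.86) for treated against normal diet. Without scaling, Ndufs1 (0.10), Sdhb (0.0016) and Cyc1 (0.14) turned for diet. With length and GC offsets, Sdhb (0.029) and Cyc1 (0.064) turned for diet. With the block added these were 0.034 and 0.074. With offsets and without normal diet replicate 3, Uqcrc1 (-0.0079), Sdhb (0.10) and Cyc1 (0.22) turned for diet, and Sdhc (0.088) and Cox4i1 (0.087) in the last comparison. With a library left out, diet values ran from -0.046 to 0.13 for Ndufv1, -0.035 to 0.19 for Cox5a, -0.0054 to 0.21 for Uqcrc1, -0.28 to 0.031 for Sdhb, -0.18 to 0.20 for Cyc1 and -0.20 to 0.017 for Ndufs1. Values of the last comparison ran from -0.34 to 0.45 for Cox7c, -0.060 to 0.86 for Atp5g1, -0.19 to 0.13 for Sdhc and -0.55 to 0.35 for Cox4i1.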
